A study of Mus musculus with 6 samples.

Results

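The genes described here mark the oligodendrocyte lineage, from the precursor cell to the myelin sheath. They were listed by symbol for their known place in the lineage, not by a cut on measured values. The list was made with earlier results of these data known, so it is not blind to them. Of the 41 listed symbols, 40 had a row in the deposited table of 47086 loci. The listed symbol Tcf7l1os had no row under that name, and no other row was used in its place. Total RNA was taken from primary cultures of the hippocampus grown for 14 days in vitro, and 3 libraries came from wild type (WT) mice while 3 came from mice with a knockout (KO) of *Fmr1*. *Fmr1* encodes FMRP, an RNA-binding protein. The labels give C57BL/6 for both genotypes, and the methods describe cultures from newborn pups, KO males and WT littermates for the mice in general, and no further allele or treatment. The libraries are labelled hippocampal neuron. They were high in the neuronal gene Slc17a7, with 269 to 290 FPKM, and also in the astrocyte gene Gfap, with 542 to 675 FPKM, so markers of both cell types were present. FPKM counts fragments relative to transcript length and library size, so levels of different genes can be set side by side.

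Oligodendrocyte precursors are dividing glial cells that respond to platelet-derived growth factor and carry the lineage transcription factors of the Olig and Sox families. On leaving the cell cycle they pass through a short newly formed stage, marked by the receptor Gpr17 and by Bcas1, before they make the proteins and lipids of the myelin sheath. In the rodent hippocampus most myelin forms after birth, and cultures of newborn tissue hold precursors beside neurons and astrocytes. The genes were described in 3 stages: 13 precursor genes, 9 genes of the newly formed stage in the table, and 18 mature myelin genes.

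The FPKM of all loci summed to between 1803679 and 2303083 per library, of which 73.7 to 80.6% came from the noncoding RNA Bc1. The number of reads is unknown, so the spread between the 3 libraries of a genotype sets the precision. The *Fmr1* transcript itself had an FPKM of 19.0, 19.5 and 19.7 in WT against 23.1, 21.8 and 18.5 in *Fmr1* KO (log2 change 0.12, standard error 0.08, adjusted p = 0.536 in limma). Measured over the whole gene, this level shows no loss in *Fmr1* KO and does not check the labels, so WT and *Fmr1* KO below stand for the libraries labelled so. Nothing in the labels says which libraries came from separate litters, so the p-values measure the spread between these libraries, which may be technical in part.

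Of the 13 precursor genes, 10 had a mean above 10 FPKM, while 8 of the 18 mature myelin genes were below 1 FPKM in every library. Among the genes of the newly formed stage, Bcas1 was lower in *Fmr1* KO, at 0.646 times its WT level, and it was the only one of the 29 genes tested that passed the threshold. Among the precursor genes, Luzp2, Pdgfra, Olig2 and Matn4 had all *Fmr1* KO libraries above WT and Sox8 had them below, but none of these passed the test. Neu4 also had them below, but it was too weakly expressed to be tested. Over all tested loci, 10.8% had all *Fmr1* KO libraries above WT and 10.3% had them below.

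A locus was tested where its mean was at least 1 FPKM in either genotype. This left 29 of the 40 genes, of which 27 reached the minimum in both genotypes, while Enpp6 and Cldn11 reached it through WT alone. The test was limma on log2(FPKM + 0.1), a scale that understates changes of weakly expressed genes, with Benjamini-Hochberg adjustment over all 13195 tested loci. At an adjusted p below 0.05, 1 gene of the lineage was lower and 0 were higher, where 0.174% of all tested loci were lower and 0.0909% were higher. At an unadjusted p below 0.05 the 29 genes gave 4 higher and 7 lower, against 6.99% and 7.77% of all loci. The 3 *Fmr1* KO libraries lay above all 3 WT libraries in 5 of the 29 genes and below them in 7, against 10.8% and 10.3% of all loci (21.1% in either direction). WT replicate 3 was the highest WT library in 19 of the 29 genes, against 28.7% of all tested loci. *Fmr1* KO replicate 1 was the lowest KO library in 19, against 35.5%. The genes shared these library differences, so counts and medians over them are not built from independent observations. In bulk RNA, fewer cells of a type and less RNA per cell cannot be told apart, and this holds for every gene below.

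**Figure D1:**
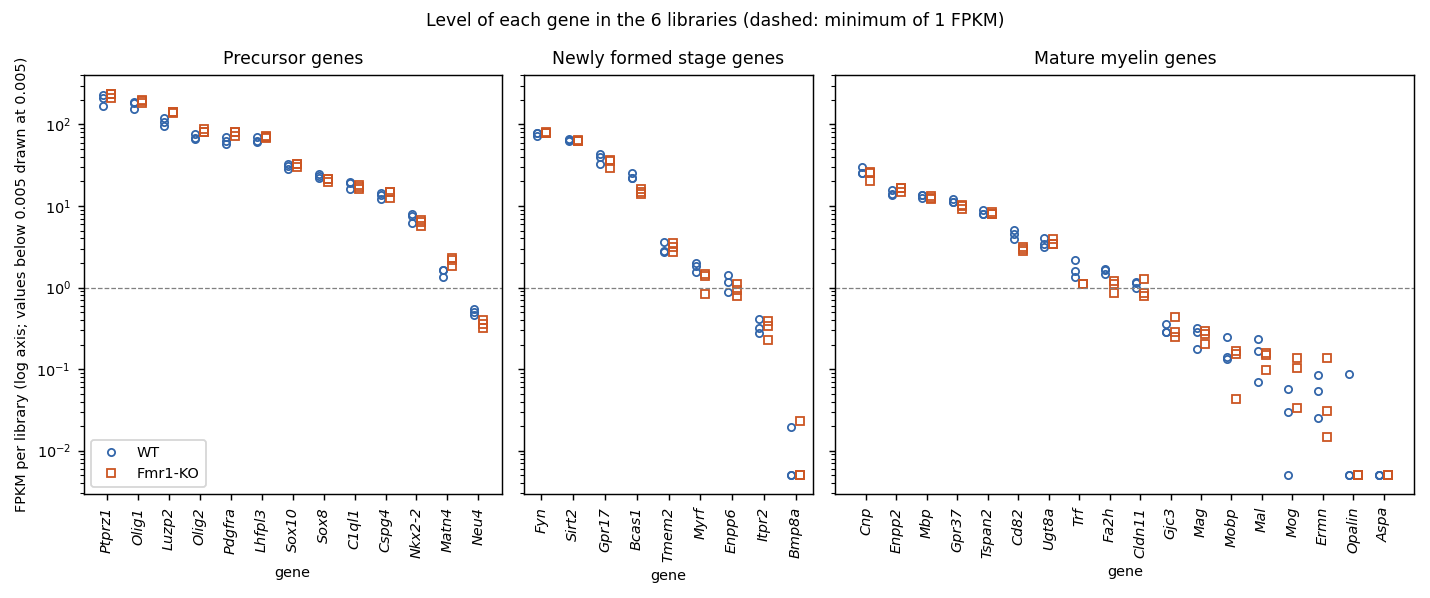
FPKM of each of the 40 genes in the 3 WT libraries (circles) and the 3 Fmr1-KO libraries (squares) on a log axis, by stage and ordered by mean level. The 13 precursor genes are above the dashed line of 1 FPKM except Neu4, whereas 8 of the 18 mature myelin genes are below it in every library.

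For 4 genes with 1 promoter entry each and libraries that did not overlap between genotypes, the 250 bases before the RefSeq start on GRCm38.p6 are shown, to set a pair that was on the high side in *Fmr1* KO beside a pair on the low side. Capitals mark the core letters ACAAT of SOX factors, which read ATTGT on the other strand. They also mark ACAAAG, a longer SOX motif. The third motif is the E-box CAGCTG, which factors of the Olig family can bind. The high pair was Luzp2 at chr7:54834995-54835244 and Olig2 at chr16:91225300-91225549, both on the plus strand. The low pair was Sox8 at chr17:25570687-25570936 and Gpr37 at chr6:25689981-25690230, both on the minus strand.
Luzp2: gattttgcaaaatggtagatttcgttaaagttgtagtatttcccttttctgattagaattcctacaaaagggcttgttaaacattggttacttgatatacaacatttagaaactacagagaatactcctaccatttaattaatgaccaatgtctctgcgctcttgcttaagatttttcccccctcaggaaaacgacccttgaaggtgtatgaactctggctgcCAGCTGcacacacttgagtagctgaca
Olig2: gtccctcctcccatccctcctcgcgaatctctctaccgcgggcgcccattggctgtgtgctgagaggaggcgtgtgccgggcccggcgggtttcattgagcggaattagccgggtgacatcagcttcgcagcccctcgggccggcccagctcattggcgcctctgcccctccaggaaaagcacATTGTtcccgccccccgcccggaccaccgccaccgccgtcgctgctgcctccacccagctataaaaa
Sox8: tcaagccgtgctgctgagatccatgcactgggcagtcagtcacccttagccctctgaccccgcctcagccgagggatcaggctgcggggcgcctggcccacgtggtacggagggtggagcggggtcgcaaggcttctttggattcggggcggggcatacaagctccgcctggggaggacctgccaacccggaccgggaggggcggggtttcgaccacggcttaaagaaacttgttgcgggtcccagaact
Gpr37: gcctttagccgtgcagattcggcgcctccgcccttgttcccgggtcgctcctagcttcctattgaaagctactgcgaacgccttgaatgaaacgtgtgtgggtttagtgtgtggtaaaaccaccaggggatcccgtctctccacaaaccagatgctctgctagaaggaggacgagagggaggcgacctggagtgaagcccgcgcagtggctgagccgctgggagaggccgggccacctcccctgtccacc
The Luzp2 window holds 1 CAGCTG. The Olig2 window holds 1 ACAAT, on the other strand, and the other two hold no match. Luzp2 has a window of 38.4% G and C with 3 CG dinucleotides. In Olig2, Sox8 and Gpr37 the window has 66.8%, 65.6% and 60.8% G and C with 22, 18 and 16 CG dinucleotides. In all, 29 of the genes matched a promoter entry, with 36 windows. Read on both strands, ACAAT was in 22.2% of these windows and in 27.7% of all 32851 windows of the same length. The shares were 19.4% and 16.5% for ACAAAG, and 8.33% and 13.0% for the E-box. No motif contains another. These shares describe the windows only, and a window without a motif says nothing of the factor.

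Lineage transcription factors. Olig1 and Olig2 are basic helix-loop-helix factors, and Sox10, Sox8 and Nkx2-2 act with them in the lineage. In WT, Olig2 (chromosome 16, 91225550 to 91228677) had 68.7, 66.4 and 75.6 FPKM against 81.8, 80.6 and 87.3 in *Fmr1* KO. All 3 KO values lay above all WT values. The log2 change was 0.25 (standard error 0.06), with an adjusted p of 0.133 in limma, above the threshold. Its neighbour Olig1 (91269769 to 91271939) had 184, 154 and 189 FPKM in WT against 183, 192 and 202 in *Fmr1* KO, and the genotypes overlapped (log2 change 0.14, adjusted p = 0.469 in limma, and 0.04 on the log2 scale without WT replicate 2). Sox10, present at every stage of the lineage, had 30.6, 28.7 and 32.8 in WT against 29.7, 33.1 and 32.6 in *Fmr1* KO. Its log2 change was 0.05, with a 95% confidence interval of -0.10 to 0.20.

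Sox8, a paralog of Sox10, was on the other side. It had an FPKM of 21.9, 23.0 and 24.7 in WT against of 20.0, 21.3 and 21.2 in *Fmr1* KO. The genotypes did not overlap, but the difference was small (log2 change -0.16, standard error 0.06) and did not pass (adjusted p = 0.286 in limma). Nkx2-2 ranged from 6.25 to 7.93 FPKM in WT against from 5.71 to 6.67 in *Fmr1* KO (log2 change -0.21, adjusted p = 0.387 in limma). Its locus also holds the antisense gene Nkx2-2os, and whether reads were counted by strand is not given in the sources used here.

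Receptors, surface and secreted proteins of the precursor. Pdgfra, the receptor through which platelet-derived growth factor drives precursor division, had an FPKM of 57.8, 63.5 and 70.0 in WT against 71.6, 80.5 and 81.8 in *Fmr1* KO. The lowest KO library was just above the highest WT library. The log2 change was 0.29, with a 95% confidence interval of 0.11 to 0.47. Luzp2, a leucine zipper protein gene enriched in precursors, was at 94.9, 107 and 119 FPKM in WT against at 140, 144 and 141 in *Fmr1* KO. The KO libraries were close together and all above WT, with a mean 1.33 times that of WT. Its log2 change of 0.41 (standard error 0.07) had an adjusted p of 0.0720 in limma and was rank 74 by p among the 13195 loci.

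Matn4, a matrilin of the extracellular matrix, was weakly expressed. Its FPKM was 1.65, 1.34 and 1.62 in WT against 2.17, 2.32 and 1.84 in *Fmr1* KO, again without overlap (log2 change 0.43, standard error 0.15, adjusted p = 0.239 in limma). The other precursor genes overlapped between genotypes, apart from Neu4. The receptor phosphatase gene Ptprz1, which astrocytes also express, had the highest level of all the genes, with 170, 212 and 229 FPKM in WT against 212, 239 and 239 in *Fmr1* KO. Lhfpl3 had 64.7 ± 4.14 FPKM in WT against 70.6 ± 2.28 in *Fmr1* KO (SD, n = 3). For Cspg4, the NG2 proteoglycan of precursors and pericytes, the values were 13.4 ± 1.11 and 14.0 ± 1.36 (SD, n = 3). C1ql1, a secreted protein related to complement C1q, had 18.4 ± 1.81 and 17.1 ± 0.893 (SD, n = 3).

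Neu4, a sialidase, was below the minimum and was not in the fit. It had 0.501, 0.548 and 0.461 FPKM in WT against 0.320, 0.363 and 0.404 in *Fmr1* KO. All KO values were lower, and an exact two-sided permutation test over the 6 libraries returned p = 0.1, the smallest p that 3 against 3 allows. Of the 12 precursor genes tested, 9 had a log2 change above 0 and 3 below, with a median of 0.13, where 51.7% of all tested loci were above 0 and their median was 0.005. Pdgfra, Olig2, Matn4 and Luzp2 were the 4 with an unadjusted p below 0.05 in limma and a change above 0. Sox8 was the only gene at that p with a change below 0. Of all tested loci, 6.99% were higher and 7.77% lower at that p.

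**Figure D2:**
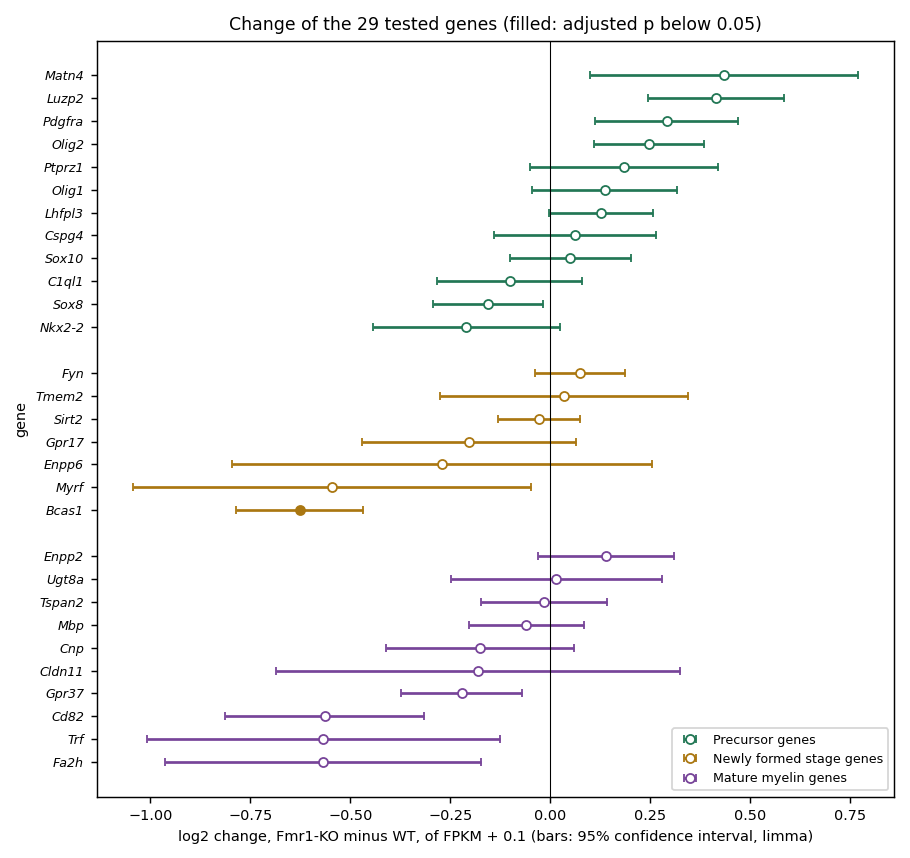
Log2 change (Fmr1-KO minus WT) of the 29 tested genes with its 95% confidence interval from limma, grouped by stage and ordered within it. Bcas1, at -0.63, is the only filled point (adjusted p below 0.05), and the intervals of 18 of the 29 genes include 0.

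Newly formed oligodendrocytes. Bcas1 (chromosome 2, 170344714 to 170427911) encodes a protein that marks cells at the onset of myelination. Its FPKM was 22.3, 22.2 and 25.1 in the WT libraries against 14.2, 14.8 and 16.0 in the *Fmr1* KO libraries. The highest KO library was far below the lowest WT library. The mean was 23.2 ± 1.63 in WT against 15.0 ± 0.907 in *Fmr1* KO (SD, n = 3), giving a log2 change of -0.63 (standard error 0.07, 95% confidence interval -0.78 to -0.47, adjusted p = 0.0105 in limma). Bcas1 was rank 14 by p among all tested loci. The call was lost without *Fmr1* KO replicate 1 (adjusted p = 0.0639 in limma) and without *Fmr1* KO replicate 2 (0.0624), while the log2 change stayed between -0.67 and -0.57 with any library left out. The locus overlaps Bcas1os2, an antisense gene, and the strand of the reads is not given in the sources used here.

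Myrf, the transcription factor that switches on myelin genes, had an FPKM of 1.56, 1.85 and 1.99 in WT against 0.838, 1.40 and 1.45 in *Fmr1* KO. The genotypes did not overlap, and *Fmr1* KO replicate 1 was well below the other two. The log2 change was -0.55 (standard error 0.22), and -0.31 without that library; the adjusted p was 0.298 in limma with all libraries. Gpr17, a receptor that rises and falls as precursors commit to differentiate, had 32.4, 40.4 and 43.3 FPKM in WT against 29.0, 36.2 and 35.4 in *Fmr1* KO. These values overlapped, with the lowest library of each genotype being its replicate 1 (log2 change -0.20, adjusted p = 0.467 in limma). The log2 change of Gpr17 was -0.10 without *Fmr1* KO replicate 1, -0.12 without WT replicate 3 and -0.32 without WT replicate 1. Gpr17 lies within a locus that also holds Lims2, so reads of the pair may not be cleanly split. Enpp6, a choline phosphodiesterase known from newly formed cells, had 0.884, 1.16 and 1.44 FPKM in WT against 0.784, 0.926 and 1.10 in *Fmr1* KO, with overlap (log2 change -0.27, standard error 0.23). Its log2 change was -0.11 without WT replicate 3, -0.16 without *Fmr1* KO replicate 1 and -0.44 without WT replicate 1.

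The other genes of this stage are not specific to the lineage. Fyn, a Src family kinase that neurons also express, had 71.6, 77.8 and 78.0 FPKM in WT against 78.6, 79.5 and 81.4 in *Fmr1* KO. The libraries were apart, but by little (log2 change 0.08, adjusted p = 0.520 in limma), and its locus overlaps Rev3l and Traf3ip2. Sirt2, a deacetylase found in myelin, was the most even gene, with 64.5 ± 1.94 FPKM in WT against 63.2 ± 1.20 in *Fmr1* KO (SD, n = 3) and a 95% confidence interval of the log2 change from -0.13 to 0.07. Tmem2, a cell surface hyaluronidase, had 3.06 ± 0.456 and 3.13 ± 0.397 (SD, n = 3). Itpr2, an inositol trisphosphate receptor, ranged from 0.231 to 0.410 FPKM over the 6 libraries, and Bmp8a, a growth factor of the BMP family, from 0 to 0.0231. Of the 7 genes tested at this stage, 5 had a log2 change below 0, where 51.7% of all tested loci were above 0. The median of the 7 was -0.20. Among the 5 is Enpp6, which reached the minimum through WT alone, so the minimum favoured that side for it. Without a minimum the median was -0.0558 over 9 genes. With Gpr17 and Bcas1 counted among the precursor genes the median of the stage was -0.03.

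**Figure D3:**
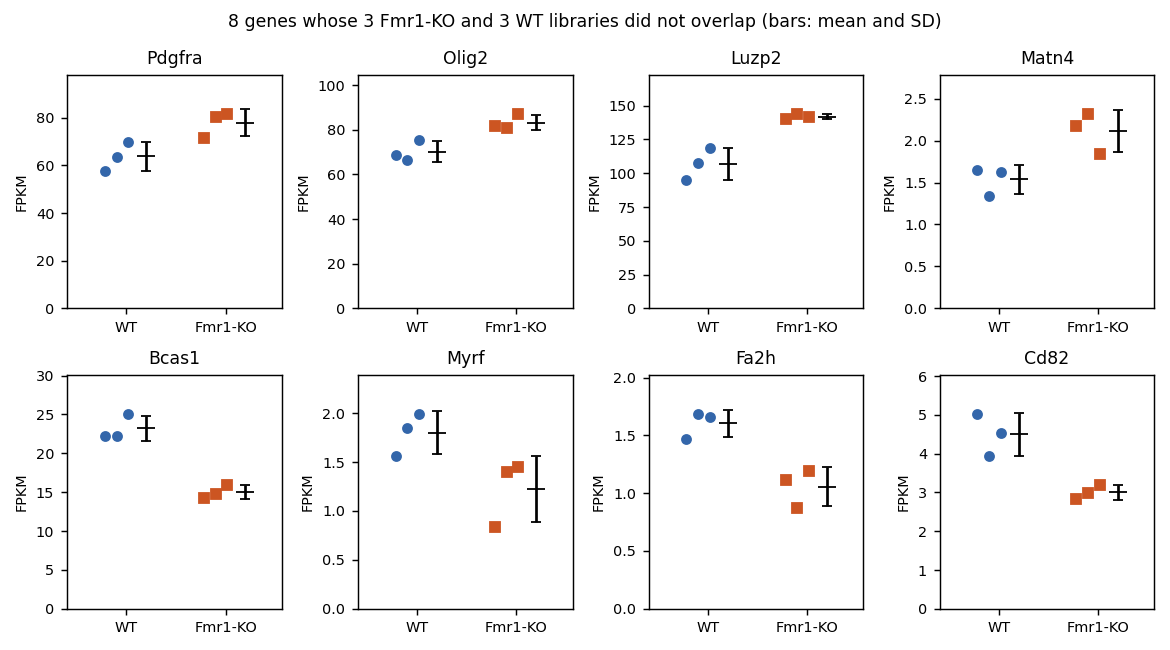
FPKM in each library for 8 of the genes whose WT and Fmr1-KO libraries did not overlap, each axis starting at 0, with the mean and SD beside the 3 points of a genotype. Bcas1 had 23.2 FPKM on average in WT against 15.0 in Fmr1-KO, while Luzp2 had 107 and 142.

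Mature myelin. Of the 18 mature myelin genes, 8 were close to 0 in these cultures. Aspa, which splits acetylaspartate, was listed at 0 in all 6 libraries. Opalin was listed at 0 in all but WT replicate 1, where it had 0.0872 FPKM. Mog, on the outer face of the sheath, did not exceed 0.136 FPKM in any library, nor did the cytoskeletal gene Ermn exceed 0.135. Mobp reached at most 0.247 FPKM, the proteolipid gene Mal 0.233, the adhesion gene Mag 0.321 and the connexin gene Gjc3 0.441. For these 8 genes the genotypes overlapped, and they lay under the minimum of the test. In a fit without a minimum, 7 of them could be tested and the lowest adjusted p in limma was 0.579, for Mog (log2 change 0.55).

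A few myelin genes were well above the minimum. Mbp, the basic protein that compacts the sheath, had 12.5, 13.6 and 13.6 FPKM in WT against 12.2, 12.6 and 13.3 in *Fmr1* KO. The genotypes overlapped, and the 95% confidence interval of its log2 change was -0.20 to 0.08. The Mbp gene also gives rise to golli transcripts outside myelin, which the FPKM of the whole gene does not separate. Cnp, an enzyme of non-compact myelin, had 25.6, 25.3 and 29.9 FPKM in WT against 20.3, 25.5 and 26.0 in *Fmr1* KO. Its log2 change of -0.18 was -0.06 without *Fmr1* KO replicate 1, and its locus overlaps Dnajc7 and Nkiras2. Tspan2, a tetraspanin, had 8.25 ± 0.506 and 8.15 ± 0.298 (SD, n = 3), and Cldn11, the tight junction protein of myelin, 1.10 ± 0.0856 and 0.977 ± 0.267 (SD, n = 3).

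Cd82 and Tspan2 both encode tetraspanins, but only Cd82 had libraries that did not overlap. For Cd82 (chromosome 2, 93419102 to 93469874) the FPKM values were 5.03, 3.94 and 4.53 in WT against 2.82, 3.0 and 3.18 in *Fmr1* KO. All KO libraries were lower, with a mean 0.667 times that of WT. The log2 change was -0.56 (standard error 0.11), with an adjusted p of 0.0766 in limma. The difference between Cd82 and Tspan2 was not tested.

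Of the lipid enzymes, Fa2h, the fatty acid hydroxylase of myelin lipids, had 1.47, 1.69 and 1.66 FPKM in WT against 1.11, 0.870 and 1.19 in *Fmr1* KO, without overlap (log2 change -0.57, standard error 0.17, adjusted p = 0.204 in limma). Ugt8a, which makes galactosylceramide, had 3.56 ± 0.478 and 3.58 ± 0.284 (SD, n = 3), a 95% confidence interval of the log2 change from -0.25 to 0.28. The iron carrier gene Trf had 2.19, 1.34 and 1.60 FPKM in WT against 1.10, 1.11 and 1.09 in *Fmr1* KO. All KO values were below WT and nearly equal, while the WT values were spread (log2 change -0.57, standard error 0.19). The orphan receptor gene Gpr37 had 11.3, 12.1 and 11.2 FPKM in WT against 10.3, 10.1 and 9.23 in *Fmr1* KO, also without overlap (log2 change -0.22, adjusted p = 0.200 in limma). Enpp2, or autotaxin, was on the other side, with 14.6 ± 1.15 in WT against 16.0 ± 1.01 in *Fmr1* KO (SD, n = 3; log2 change 0.14). Of the 10 mature genes tested, 8 had a log2 change below 0, and the median of the 10 was -0.18. Among the 8 is Cldn11, which reached the minimum through WT alone, so the minimum favoured that side for it. Without a minimum the median was -0.0899 over 17 genes. Fa2h, Gpr37, Cd82 and Trf, 4 of the 8, were below an unadjusted p of 0.05 in limma. Of all tested loci, 51.7% had a log2 change above 0, and 7.77% were lower at that p.

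Ratios between genes of one library do not depend on how the library was scaled. Per 100 FPKM of Pdgfra, Bcas1 had 38.6, 35.0 and 35.8 FPKM in WT against 19.8, 18.4 and 19.5 in *Fmr1* KO. Per 100 FPKM of Sox10, it had 72.8, 77.4 and 76.4 in WT against 47.8, 44.6 and 49.1 in *Fmr1* KO. The genotypes were apart in both ratios. For Gpr17, Enpp6 and Mbp, the separation depended on the gene they were set against. Pdgfra was itself on the high side in *Fmr1* KO, and against it the genotypes were apart for Gpr17, Enpp6 and Mbp. Per 100 FPKM of Pdgfra, Gpr17 had 56.2, 63.6 and 61.8 FPKM in WT against 40.5, 45.0 and 43.3 in *Fmr1* KO, and Mbp had 21.6, 21.4 and 19.4 against 17.0, 15.6 and 16.3. Enpp6 had 1.53, 1.83 and 2.06 in WT against 1.10, 1.15 and 1.35 in *Fmr1* KO by the same measure. Set against Sox10, whose level differed less, all 3 genes overlapped. Per 100 FPKM of Sox10, Gpr17 had 106, 141 and 132 FPKM in WT against 97.6, 109 and 109 in *Fmr1* KO, and Enpp6 had 2.89, 4.04 and 4.39 against 2.64, 2.79 and 3.38. Mbp had 43.2 ± 3.60 in WT against 39.9 ± 1.76 in *Fmr1* KO (SD, n = 3) on that scale. Luzp2, Pdgfra, Myrf and Fa2h were set against Sox10 only, and there the genotypes were apart for each. Luzp2 had 310, 373 and 361 FPKM in WT against 472, 435 and 434 in *Fmr1* KO. Pdgfra had 189, 221 and 213 in WT against 241, 243 and 251. Myrf had 5.09, 6.44 and 6.07 in WT against 2.82, 4.22 and 4.44, and Fa2h had 4.80, 5.87 and 5.05 against 3.74, 2.62 and 3.65. These pairs were chosen after the values were seen, and the ratios are given without a test.

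**Figure D4:**
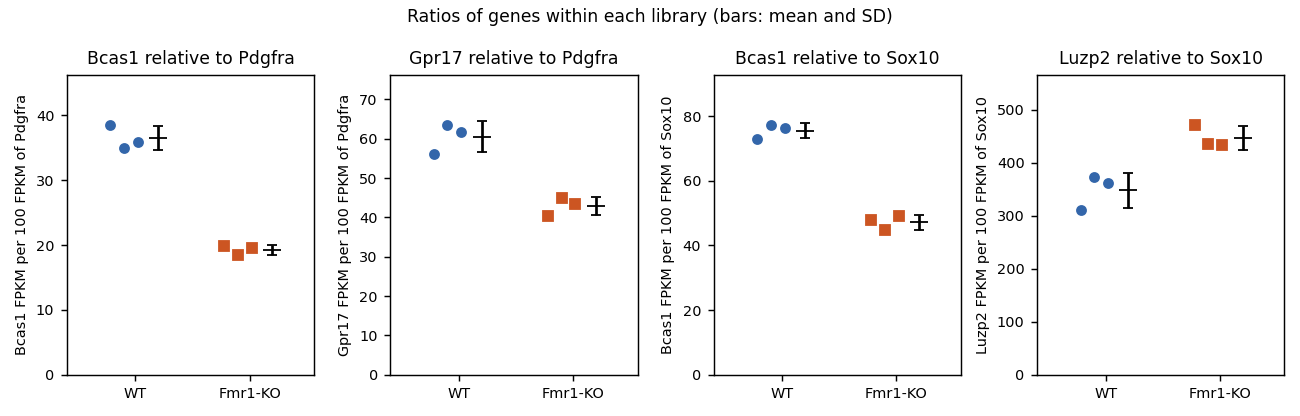
Ratio of 2 genes within each library, as FPKM of the first per 100 FPKM of the second, with axes from 0 and the mean and SD beside the 3 points of each genotype. Bcas1 per 100 FPKM of Pdgfra averaged 36.5 in WT against 19.3 in Fmr1-KO, and Gpr17 averaged 60.5 and 43.0 on the same scale, which Pdgfra, on the high side in Fmr1-KO, also sets.

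Other genes of the lineage showed no call. From the lists of further precursor genes, further myelin genes, lineage regulators and growth signals, 10, 13, 11 and 14 genes were tested, with 0 at an adjusted p below 0.05 in limma. Counted by an unadjusted p below 0.05, they held 2, 0, 1 and 1 higher and 1, 3, 2 and 0 lower. The shares of all tested loci at that p were 6.99% higher and 7.77% lower. Their median log2 changes were -0.01, -0.06, 0.03 and 0.01. The extremes of the precursor list were Xylt1, a xylosyltransferase, at 0.41 (standard error 0.21), and the matrix gene Emid1 at -0.32 (standard error 0.14). Those of the myelin list were the carbonic anhydrase gene Car2 at 0.14 and Tmem63a at -0.34. Among regulators they were the chromatin remodeller Chd7 at 0.21 and Hes5, a Notch target that holds back differentiation, at -0.20. Among signals they were the Notch ligand Jag1 at 0.18 and Bmp4, which turns precursors away from the oligodendrocyte fate, at -0.32 (standard error 0.14).

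Markers of other cells were measured beside these genes, since several of the genes are also expressed elsewhere. The 12 proliferation genes all had a log2 change above 0, from Pcna at 0.09 to Bub1 at 0.43, with a median of 0.27, and their summed FPKM was 72.0 to 78.6 in WT against 86.7 to 89.1 in *Fmr1* KO. The precursor genes summed to 731 to 853 and 847 to 913. The part of dividing cells in the levels of Pdgfra, Olig2 and Luzp2 was not tested. The 10 microglia genes summed to 6.53 to 9.03 FPKM in WT against 1.37 to 3.11 in *Fmr1* KO. All *Fmr1* KO libraries were below WT in 6 of them. Only 4 of the 10 reached the minimum, and all 4 were among the 6, against 10.3% of all tested loci. Aif1 and Tmem119 were listed at 0 throughout. Lyz2 was lower at an adjusted p of 0.0359 in limma. Cd82 is also expressed by immune cells, and their part in its level was not tested. The 9 choroid plexus genes summed to 1.24 to 2.13 FPKM in WT against 54.3 to 64.0 in *Fmr1* KO, nearly all of it from Ttr. Kl was listed at 0 in all libraries. Only 2 of the 9 were tested, and 1 of them was higher at an adjusted p below 0.05 in limma, against 0.0909% of all tested loci. Trf and Enpp2 are known from the choroid plexus too, and its part in them was not tested.

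The 10 genes of fibroblasts and mural cells, which share Pdgfra and Cspg4 with precursors, summed to 48.1 to 52.8 FPKM in WT against to 39.1 to 47.1 in *Fmr1* KO. Their part in Pdgfra was not tested, and their sum was on the low side in *Fmr1* KO. The 10 astrocyte genes overlapped between genotypes in their sums, 1769 to 2083 and 1831 to 2030 FPKM.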

How the data were processed

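RNA of the hippocampal cultures was sequenced in 3 WT and 3 *Fmr1* KO libraries, grouped by the sample titles. According to the methods, the authors cleaned adapters with Fastx Clipper, trimmed with sickle, mapped reads to GRCm38 with TopHat2, and used Cufflinks and Cuffdiff. For the tool versions, the annotation and the scaling, the sources used here give nothing. The values used were the deposited FPKM per library. The deposited group means, fold changes, p-values and q-values of the Cuffdiff comparison were not used. The start positions in the table count from 0 and were raised by 1, after 24664 of 43363 starts matched RefSeq that way and 276 as listed.

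Loci with several symbols were kept once, and for 3 genes with several loci the one with the highest mean was taken. Loci with a mean of at least 1 FPKM in either genotype were fitted as log2(FPKM + 0.1) in limma 3.58.1 (R 4.3.3), with genotype as the only term, a mean-variance trend and two-sided tests. Exact permutation tests used scipy 1.17.1. The fit was tested on simulated data, with noise drawn separately for each locus. At an adjusted p below 0.05 in limma it recovered 58.5% of 195 loci given a log2 change of 0.5. For a change of 1 it recovered 92.9% of 198 loci. A gene that did not pass is therefore not shown to be unchanged. Genes named were all listed members, and of other lists those at an adjusted p below 0.05 and the extremes; Slc17a7, Gfap, Pcna, Bub1 and the genes at 0 are given as context. The members and lists were chosen with earlier results of these data known. The alternatives were other pseudocounts (1 and 0.01), no minimum and a minimum of 5 FPKM, centred libraries, no trend, each library left out, the replicate number as a block, and another stage for Gpr17 and Bcas1. Promoter windows were read from a RefSeq table of GRCm38.p6.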

Additional observations from a re-analysis of the deposited data

How the results depend on the processing

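For the log2 changes of the 29 tested genes, 353 of 368 values under the alternatives kept their direction and their side of the threshold. Bcas1 alone was called in the main fit, so this count says little of how calls held. The call of Bcas1 was lost under 4 of the alternatives. Its log2 change was between -0.67 and -0.57 in all alternatives. It did not pass an adjusted p of 0.05 in limma without an FPKM minimum (0.0678, with 26981 loci tested in place of 13195). Nor did it pass without the mean-variance trend (0.0576), and the cause was not tested. In both, 0 genes were called lower. With libraries left out in turn, 0 to 1 genes were called lower at an adjusted p, and 3 to 7 were higher at an unadjusted p, with 7 without WT replicate 3. With a minimum of 5 FPKM, 3 genes were lower at an unadjusted p and 10 had a log2 change below 0, as fewer genes were tested. The median of the newly formed genes was -0.0558 without a minimum, -0.0282 with Gpr17 and Bcas1 moved to the precursors, and -0.32 to -0.10 with libraries left out, at -0.32 without WT replicate 1, -0.11 without WT replicate 3 and -0.10 without *Fmr1* KO replicate 1. The median of the precursor genes was 0.07 without WT replicate 1. That of the mature genes was -0.0899 without a minimum, -0.0600 with a minimum of 5 FPKM and -0.21 to -0.0572 with libraries left out, the highest being that without *Fmr1* KO replicate 1. With libraries left out, the log2 change was -0.00436 to 0.14 for Cspg4, -0.0538 to 0.15 for Tmem2, -0.0680 to 0.11 for Ugt8a and -0.0453 to 0.0333 for Tspan2, so their direction was not settled.

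The replicate numbers do not pair the libraries by any label. The correlation of deviations between same-numbered libraries was 0.243, 0.0577 and 0.0801. Between a library numbered 1 and those of other numbers it was -0.152 to -0.119. Whether same-numbered libraries were handled together was not tested. Libraries 1 and 3 of each genotype correlated best with their own number, and those numbered 2 did not. With the replicate block, 2 genes were higher at an adjusted p below 0.05, Pdgfra (log2 change 0.29) and Luzp2 (0.41), both at 0.0496 in limma, and 65 loci in place of 35 were called in all. The number of loci called was 15 without a minimum, 54 with a minimum of 5 FPKM, 21 without the trend and 14 to 20 with a library left out. The depth of the libraries is unknown, which limits what can be said of genes listed near 0.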
